A study of Homo sapiens with 4 samples.

Results

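The genes described here are the nuclear-encoded subunits of the mitochondrial respiratory chain and of ATP synthase. They were chosen by symbol, as every protein-coding gene whose symbol starts with NDUFA, NDUFB, NDUFC, NDUFS, NDUFV, UQCR, COX4, COX5, COX6, COX7, COX8 or ATP5, together with SDHA, SDHB, SDHC, SDHD and CYC1, without the NDUFAF assembly factors and without pseudogenes. RefSeq lists 89 such genes, and 80 of them were measured among the 18417 genes of the arrays. They comprise 34 of 38 genes of complex I, 3 of 4 of complex II, 8 of 10 of complex III, 17 of 17 of complex IV and 18 of 20 of complex V. The other 9 are not analysed here, and 6 of these (ATP5F1E, ATP5MF-PTCD1, NDUFC2, NDUFC2-KCTD14, NDUFS5 and UQCRHL) lie on probe sets that name other genes as well. The rule reads symbols alone, but it was set with earlier results of these data known. It also asks for COX7C to be compared with the other subunits.

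Transcript levels were read from 4 Affymetrix whole-transcript arrays, 1 for each sample of total RNA from MDA-MB-468 cells, a human breast cancer line that expresses endogenous mutant p53-R273H. In the p53si-1 group (2 arrays) the cells carried a lentiviral shRNA against p53, and in the NS group (2 arrays) a lentiviral shRNA with no target. Both groups thus share the line, the p53 mutation and lentiviral transduction, and the comparison rests on 1 line and 1 p53 shRNA sequence. The duration of the knockdown is given differently in different places of the study and is not stated here, and the p53 transcript itself was not analysed here. Each value is a log2 signal of a transcript cluster, the set of probes that stands for a gene, and a difference of 1 between log2 signals is a doubling. All differences are p53si-1 minus NS, and they were tested with limma over all genes with Benjamini-Hochberg adjustment.

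The respiratory chain passes electrons from NADH (complex I) and succinate (complex II) through ubiquinone and cytochrome c (complex III) to oxygen (complex IV, cytochrome c oxidase), and complex V uses the resulting proton gradient to make ATP. Complexes I, III, IV and V combine subunits encoded in mitochondrial DNA with subunits encoded in the nucleus, while complex II is encoded in the nucleus alone. The nuclear genes are transcribed separately, and NRF1, the GABP factors, YY1 and the PGC-1 coactivators are known regulators of many of them.

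The arrays carried the marks of the labelled line. Signals of the 7 epithelial markers EPCAM, CDH1, KRT7, KRT8, KRT18, KRT19 and EGFR lay between 9.38 and 12.59, whereas the hormone receptors ESR1 and PGR, which this line lacks, lay between 3.89 and 4.62. Of the leukocyte markers, PTPRC, CD3E and LYZ stayed between 2.95 and 3.88 and CD14 lay between 9.69 and 9.92. Endothelial PECAM1, VWF and CDH5 lay between 4.19 and 5.11, and the fibroblast markers COL1A1, COL1A2, PDGFRB and DCN between 3.25 and 7.32. None of these markers passed an adjusted p of 0.05 from limma between p53si-1 and NS.

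Across the 80 subunits, 1 gene rose with p53si-1 and none fell at an adjusted p under 0.05 from limma. This gene was COX7C, a small subunit of cytochrome c oxidase. In the background of all genes, 0.0326% were called higher and 0.076% lower by the same rule. COX7C was also the only subunit higher by over 1.5-fold, where 0.271% of all genes were higher and 0.652% were lower by that margin, and no subunit was lower by over 1.5-fold. At an unadjusted p under 0.05, 5 subunits were higher (COX7C, NDUFA5, NDUFA2, ATP5MJ and ATP5MGL) and 3 were lower (NDUFA3, COX7B2 and ATP5PF), where 5.45% of all genes were higher and 6.8% lower. Both unadjusted counts are near the background. On arrays of bulk RNA, fewer cells that carry a transcript and less transcript per cell cannot be told apart.

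The differences of the other subunits were small. The median over the 80 subunits was 0.023 on the log2 scale, with quartiles of -0.039 and 0.12 and a full range from -0.54 (NDUFA3) to 1.03 (COX7C). The median of all genes was -0.0089, and that of the 2033 genes at least as bright as the median subunit was 0.013. The median size of the difference, without its sign, was 0.075 for the subunits, 0.093 for all genes and 0.090 for the bright genes. Of the 80 subunits 45 had a higher mean with p53si-1 and 35 a lower one, or 56.2% higher, where 47.4% of all genes and 54.7% of the bright genes had a higher mean. The 95% confidence interval of the difference lay within a 1.5-fold change in either direction for 77 of the 80, where 91.9% of all genes met this bound. The 3 exceptions were COX7C, COX7B and NDUFA3.

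Both p53si-1 arrays lay above both NS arrays for 22 subunits (27.5%), below both for 6 (7.5%), and overlapped with them for 52. Among all genes 19.9% lay above and 22.6% below, and among the bright genes 29.2% lay above and 22.4% below. Most of the 22 differed by little: NDUFV2, a subunit of the NADH-oxidizing module, had signals of 10.28 and 10.29 with p53si-1 and 10.28 and 10.23 with NS, a difference of 0.031.

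**Figure D1:**
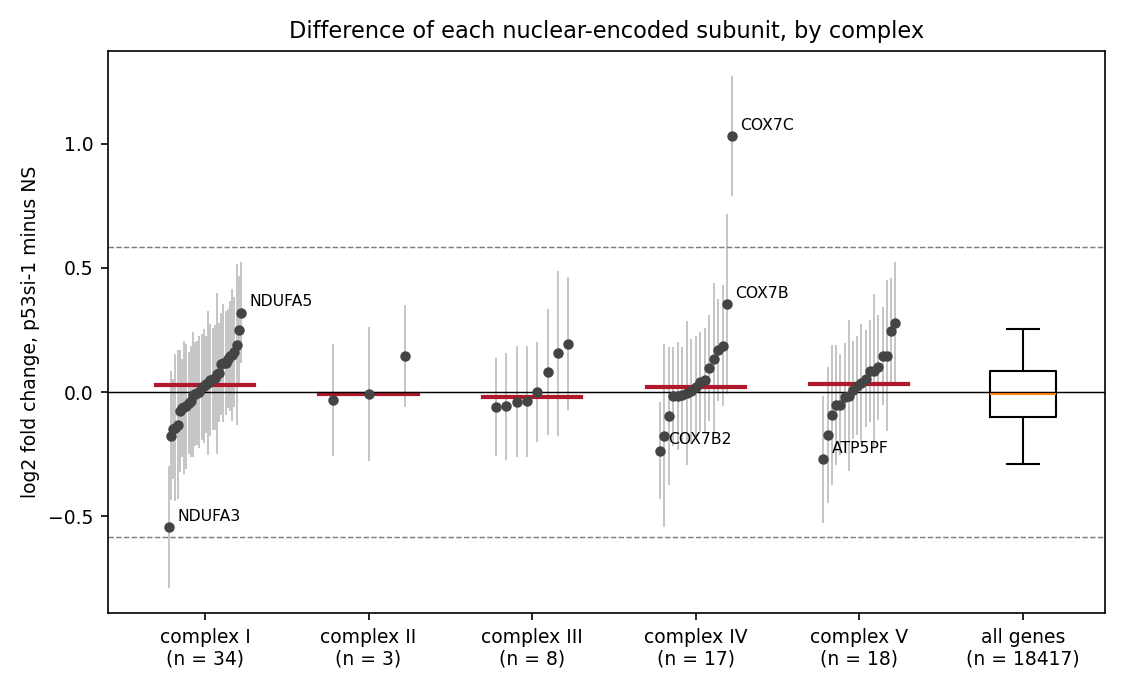
Difference in log2 signal between p53si-1 and NS for the 80 subunits, by complex, with the 95% confidence interval from limma as a gray line, the median of each complex as a red bar and the 1.5-fold limits as dashed lines. The box at the right shows the quartiles of all 18417 genes, with whiskers from the 5th to the 95th percentile. COX7C at 1.03 stands apart from the other subunits, whose differences lie between -0.54 and 0.35.

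Complex IV held the largest increase. The log2 signals of COX7C were 9.36 and 9.57 in p53si-1 cells, against 8.46 and 8.41 in NS cells. Both p53si-1 arrays were clearly above both NS arrays. The difference of 1.03 (standard error 0.099, 95% confidence interval 0.79 to 1.27, adjusted p = 0.048 from limma) corresponds to 2.04-fold, and it ranked 7 among the increases of all 18417 genes. The call was a narrow one: with each array left out in turn the difference stayed between 0.93 and 1.13, but the adjusted p from limma lay between 0.066 and 0.223, so that none of the 4 smaller comparisons passed. With the replicate number as a replicate block the adjusted p was 0.053. RefSeq names 4 pseudogenes after COX7C, and whether their transcripts reach its probes was not tested.

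COX7B, COX7A2 and COX7A2L came next in complex IV. COX7B, a small membrane subunit, had signals of 8.96 and 8.79 with p53si-1 and 8.73 and 8.32 with NS. The groups did not overlap, but the NS arrays lay far apart, and the difference of 0.35 (standard error 0.15, 95% interval -0.0092 to 0.72, adjusted p = 0.415 from limma) did not pass the test. It was 0.15 without NS replicate 2 and 0.56 without NS replicate 1. COX7A2, the form of subunit VIIa found in most tissues, had signals of 9.46 and 9.55 with p53si-1 against 9.42 and 9.22 with NS, a difference of 0.19. COX7A2L, a related protein that joins complexes III and IV into supercomplexes, had 10.51 and 10.61 with p53si-1 against 10.41 and 10.37 with NS, a difference of 0.17. Neither passed the test (adjusted p = 0.521 and 0.494 from limma).

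The promoter sequences of COX7C and COX7B are shown because these were the largest increases among the subunits. The 250 bases before the start of each gene (RefSeq, GRCh38.p14, plus strand, 5′ to 3′) lie at chr5:86617691-86617940 for COX7C and at chrX:77899218-77899467 for COX7B. Capitals mark matches to the letters ACTACANNTCCC, known as a motif of the factors ZNF143 and THAP11, which were searched for after the COX7C promoter had been read.
COX7C: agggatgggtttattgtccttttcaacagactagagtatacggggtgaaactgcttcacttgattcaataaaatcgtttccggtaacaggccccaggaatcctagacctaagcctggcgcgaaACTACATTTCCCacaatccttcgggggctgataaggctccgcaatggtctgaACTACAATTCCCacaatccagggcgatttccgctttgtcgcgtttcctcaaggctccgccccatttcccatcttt
COX7B: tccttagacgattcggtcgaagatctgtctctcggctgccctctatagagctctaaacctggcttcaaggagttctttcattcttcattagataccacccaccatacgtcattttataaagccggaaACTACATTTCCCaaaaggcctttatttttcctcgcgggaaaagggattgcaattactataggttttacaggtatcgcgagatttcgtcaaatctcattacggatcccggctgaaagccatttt
Counted from the start, COX7C holds the letters at bases -127 to -116 and again at -75 to -64, and COX7B at -123 to -112. Of the 67 subunits with a promoter entry, 5 (7.46%) hold the letters on either strand, against 3.11% of 15842 protein-coding genes. These shares cover a wider window, from 250 bases before to 50 after any listed start. COX7C and COX7B are among the 5. The match of COX7C was known when the letters were chosen, so the share is no test of the subunits. The other holders are ATP5PO, NDUFB10 and UQCR10, whose differences were 0.085, 0.078 and -0.037. A match of letters is a description of the sequence and does not show that a factor binds there.

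Apart from COX7C and COX7B, the complex IV subunits of general use differed by at most 0.19. The 11 such subunits, with COX7C and COX7B among them, had a median difference of 0.098, with a higher mean in 9 (81.8%). Both p53si-1 arrays lay above both NS arrays for 5 of them (COX7C, COX7B, COX7A2, COX7A2L and COX6C), or 45.5%. A higher mean was found for 47.4% of all genes and 54.7% of the bright genes. The arrays lay above for 19.9% and 29.2%. All 11 were lower on NS replicate 2 than on NS replicate 1, with a median of -0.100. Without NS replicate 2 the differences of COX5B, COX6A1 and COX8A turned negative, so the count of higher means rested in part on that array. COX6C, a membrane subunit, had signals of 11.40 and 11.36 with p53si-1 against 11.345 and 11.21 with NS (difference 0.098). COX5A and COX5B, which face the matrix, differed by 0.048 and 0.13, and the p53si-1 and NS arrays of both overlapped. COX4I1, the common form of subunit IV that takes part in regulation by ATP, had signals of 8.15 and 8.13 with p53si-1 against 8.18 and 8.13 with NS, a difference of -0.013 with a 95% interval of -0.21 to 0.18. COX6A1 (0.0062), COX6B1 (-0.0042), which faces the intermembrane space, and COX8A (0.021) lay as close to 0.

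All but COX6A2 of the 6 paralogs that are mainly used in other tissues were dim, and the median difference of the 6 was -0.057. Their mean log2 signals lay between 3.25 and 6.64, and the 6.64 belonged to COX6A2, the form of heart and skeletal muscle. COX7B2, a testis form, was the paralog of COX7B and had signals of 3.18 and 3.23 with p53si-1 against 3.43 and 3.45 with NS. It lay lower on both p53si-1 arrays, with a difference of -0.24 (standard error 0.081, adjusted p = 0.328 from limma) at a signal where little transcript is measured. COX7A1, the muscle form of subunit VIIa, had 4.85 and 4.45 with p53si-1 against 4.71 and 4.94 with NS (difference -0.18), and its arrays overlapped. The differences of COX8C, COX6B2 and COX6A2 were -0.096, -0.018 and -0.016, and that of COX4I2, an oxygen-regulated form of subunit IV, was 0.041. COXFA4, formerly NDUFA4, is a complex IV subunit that the symbol rule leaves out. Its signals were 10.14 and 10.15 with p53si-1 against 10.04 and 9.99 with NS (difference 0.13, adjusted p = 0.601 from limma).

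**Figure D2:**
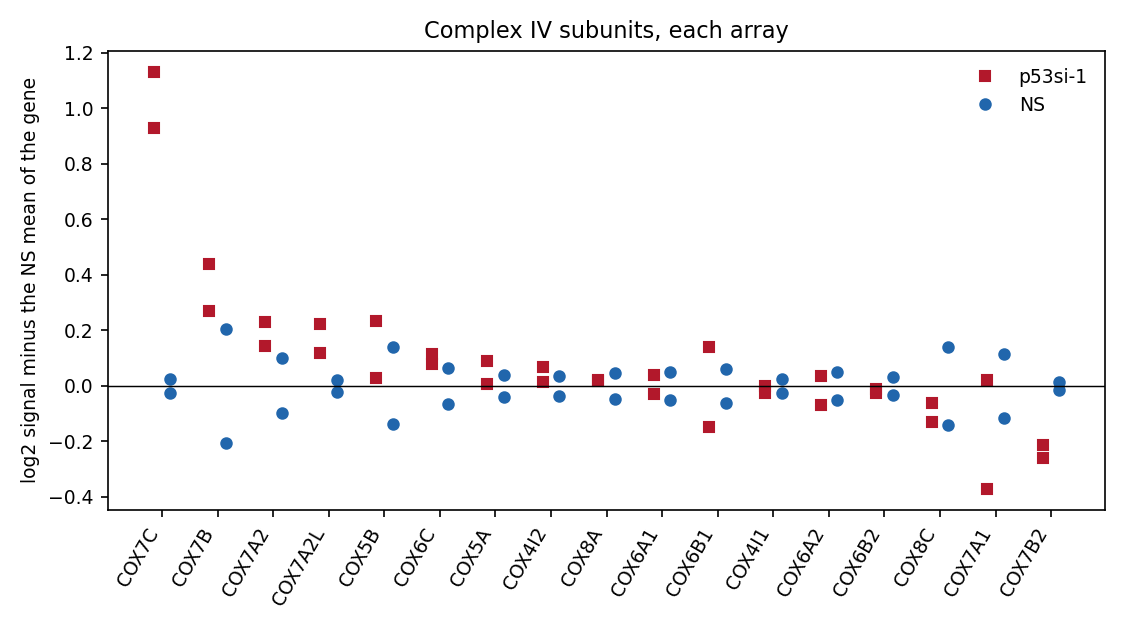
The 17 complex IV subunits on the 4 arrays, as log2 signal after subtraction of each gene's NS mean, with p53si-1 arrays as red squares and NS arrays as blue circles, ordered by the difference of the group means. The p53si-1 arrays of COX7C lie near 1, while those of the other 16 subunits lie within 0.5 of the NS mean.

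Set against the other subunits, COX7C differed by its size. The lower bound of its 95% interval (0.79) lay above the highest upper bound of the other 79 subunits (0.72, COX7B), and the gap to the next difference was 0.68. Without COX7C the median of complex IV was 0.014 in place of 0.021, and that of all subunits was 0.022 in place of 0.023. The difference between COX7C and the other subunits was described and not tested.

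Complex I had a median difference of 0.028 over 34 subunits, with a higher mean in 20 and a lower mean in 14. NDUFA5, a subunit of the quinone-binding module in the matrix arm, had the largest increase. Its signals were 9.38 and 9.30 in p53si-1 cells, against 8.99 and 9.04 in NS cells. The groups did not overlap, and the difference was 0.32 (standard error 0.084, adjusted p = 0.226 from limma). RefSeq names 12 pseudogenes after NDUFA5. NDUFA2, of the NADH-oxidizing module, had 8.56 and 8.58 with p53si-1 against 8.40 and 8.25 with NS, a difference of 0.25 (adjusted p = 0.354 from limma). NDUFB6, of the membrane arm, had 6.77 and 7.09 with p53si-1 and 6.84 and 6.64 with NS, which overlapped (difference 0.19).

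The largest decrease of all subunits was that of NDUFA3, a small accessory subunit of the membrane arm. Its signals were 9.46 and 9.27 in p53si-1 cells, against 9.96 and 9.86 in NS cells. Both p53si-1 arrays were below both NS arrays, and the difference of -0.54 (standard error 0.10, 95% interval -0.79 to -0.30, adjusted p = 0.122 from limma) did not pass the test. It amounted to 1.46-fold and ranked 155 among the decreases of all genes. NDUFA3 passed 1.5-fold when NS replicate 2 or p53si-1 replicate 1 was left out, with differences of -0.59 and -0.64. NDUFS8, an iron-sulfur subunit of the quinone-binding module, had 9.95 and 9.76 with p53si-1 and 10.11 and 9.95 with NS, which overlapped (difference -0.18). NDUFA11, of the membrane arm, had 8.87 and 8.80 with p53si-1 against 9.005 and 8.96 with NS (difference -0.15, adjusted p = 0.540 from limma).

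By modules, the differences of complex I had no common direction. The 8 measured subunits of the NADH-oxidizing module had a median of 0.013, the 4 of the quinone-binding module -0.0065, the 5 other subunits of the matrix arm 0.022 and the 17 of the membrane arm 0.050. The quinone-binding module held both NDUFA5 (0.32) and NDUFS8 (-0.18), and the membrane arm ran from NDUFA3 (-0.54) to NDUFB6 (0.19). The catalytic subunits of the NADH-oxidizing module stayed close to 0, with NDUFV1, the flavoprotein, at -0.011, NDUFV2 at 0.031 and NDUFS1, the largest subunit, at 0.11.

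Complexes II and III, which are the smaller sets, had medians of -0.0080 and -0.019. In complex II the flavoprotein SDHA had signals of 11.26 and 11.17 with p53si-1 and 11.32 and 11.18 with NS (difference -0.032), and the membrane anchor SDHD 10.61 and 10.40 with p53si-1 and 10.60 and 10.42 with NS (difference -0.0080). The other anchor, SDHC, lay higher on both p53si-1 arrays, with 10.81 and 10.87 against 10.74 and 10.65 with NS (difference 0.15, adjusted p = 0.557 from limma). In complex III the hinge protein UQCRH, which docks cytochrome c, lay higher on both p53si-1 arrays, with 8.35 and 8.16 against 8.15 and 7.97 with NS, a difference of 0.19 (adjusted p = 0.545 from limma). UQCRB (0.16) and the core protein UQCRC2 (0.081) had higher means, and UQCR11 (-0.060), cytochrome c1 (CYC1, -0.058) and the core protein UQCRC1 (-0.038) had lower ones. The p53si-1 and NS arrays of these genes overlapped except for UQCR11.

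Complex V had a median of 0.031 over 18 genes, with a higher mean in 11. ATP5MJ, a small membrane-bound subunit, had signals of 9.50 and 9.61 in p53si-1 cells against 9.35 and 9.27 in NS cells, a difference of 0.25 (standard error 0.088, adjusted p = 0.348 from limma). ATP5MGL, a dim copy related to subunit g, had 4.94 and 5.15 with p53si-1 against 4.81 and 4.72 with NS (difference 0.28, adjusted p = 0.361 from limma), whereas ATP5MG, subunit g itself, differed by 0.054. ATP5MK, which helps ATP synthase form dimers, had 10.00 and 10.29 with p53si-1 and 9.91 and 10.09 with NS, which overlapped (difference 0.15).

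The largest decrease in complex V was that of ATP5PF, coupling factor 6 of the peripheral stalk. Its signals were 8.34 and 8.58 with p53si-1, against 8.70 and 8.75 with NS, and the difference was -0.27 (standard error 0.10, 95% interval -0.53 to -0.015, adjusted p = 0.381 from limma). The 3 other measured stalk subunits, ATP5PB, ATP5PO and ATP5PD, differed by 0.099, 0.085 and -0.021. ATP5MC1, ATP5MC2 and ATP5MC3, which encode the same mature c-ring protein, differed by -0.17, -0.091 and 0.037, and the arrays of all 3 overlapped. The 4 measured subunits of the catalytic F1 head had a median of 0.017, and ATP5F1B, its catalytic beta subunit, had signals of 12.90 and 12.97 for p53si-1 against 12.79 and 12.79 for NS (difference 0.15). ATP5IF1, the natural inhibitor of ATP hydrolysis by the enzyme, differed by 0.086 with overlapping arrays.

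The promoters of NDUFA3 and ATP5PF are shown because these were the largest decreases. The 250 bases before the start lie at chr19:54102605-54102854 (plus strand) for NDUFA3 and at chr21:25735055-25735304 (minus strand) for the first of the starts listed for ATP5PF. Capitals mark the letters searched for the regulators of respiratory genes, which are GCATGCGC (core of the NRF1 site), CCGGAAG (ETS and GABP factors) and AAGATGGC (YY1), on either strand.
NDUFA3: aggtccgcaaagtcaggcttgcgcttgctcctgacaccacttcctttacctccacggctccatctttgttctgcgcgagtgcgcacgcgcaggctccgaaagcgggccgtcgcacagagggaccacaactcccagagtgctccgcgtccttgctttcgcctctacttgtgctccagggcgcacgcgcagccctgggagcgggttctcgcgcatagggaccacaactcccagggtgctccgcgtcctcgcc
ATP5PF: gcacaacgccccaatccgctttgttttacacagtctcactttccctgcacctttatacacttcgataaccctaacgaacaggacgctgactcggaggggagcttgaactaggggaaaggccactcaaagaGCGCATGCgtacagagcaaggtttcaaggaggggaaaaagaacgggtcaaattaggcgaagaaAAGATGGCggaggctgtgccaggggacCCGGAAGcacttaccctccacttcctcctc
These letters do not occur in the window of NDUFA3, whereas that of ATP5PF holds each of them, the NRF1 core as its reverse complement. Over 250 bases before to 50 after any listed start, 13 of 67 subunits (19.4%) and 4.89% of 15842 protein-coding genes hold the NRF1 core. The ETS letters occur in 20 (29.9%) against 16.5%, their longer form CCGGAAGT in 12 (17.9%) against 6.97%, and the YY1 letters in 11 (16.4%) against 4.66%. In this wider window the YY1 letters also occur in NDUFA3, and COX7C and COX7B hold none of the 3 sets. The ETS letters and their longer form overlap and were not counted as separate sites.

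Many subunits differed between the replicates of a group in the same direction in both groups. Replicate 2 lay below replicate 1 in both groups for 44 of 80 subunits (55.0%) and above it in both for 9, where 32.0% and 26.1% of all genes did so. The median of replicate 2 minus replicate 1 was -0.035 with p53si-1 and -0.094 with NS, and 64 subunits were lower on NS replicate 2 than on NS replicate 1. The p53si-1 minus NS median was 0.0024 between the replicate 1 arrays, with 42 of 80 subunits higher, and 0.052 between the replicate 2 arrays, with 52 higher. The median over all subunits was -0.021 without NS replicate 2 and 0.057 without NS replicate 1, so its sign rested on NS replicate 2. Replicate 2 was lower in both groups for 36.5% of the 2033 genes at least as bright as the median subunit, for 43 of 57 cytosolic ribosomal proteins (75.4%), for 36.1% of the mitochondrial ribosomal proteins and for 34.1% of the assembly factors. The part of the arrays' preparation in this pattern was not tested.

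**Figure D3:**
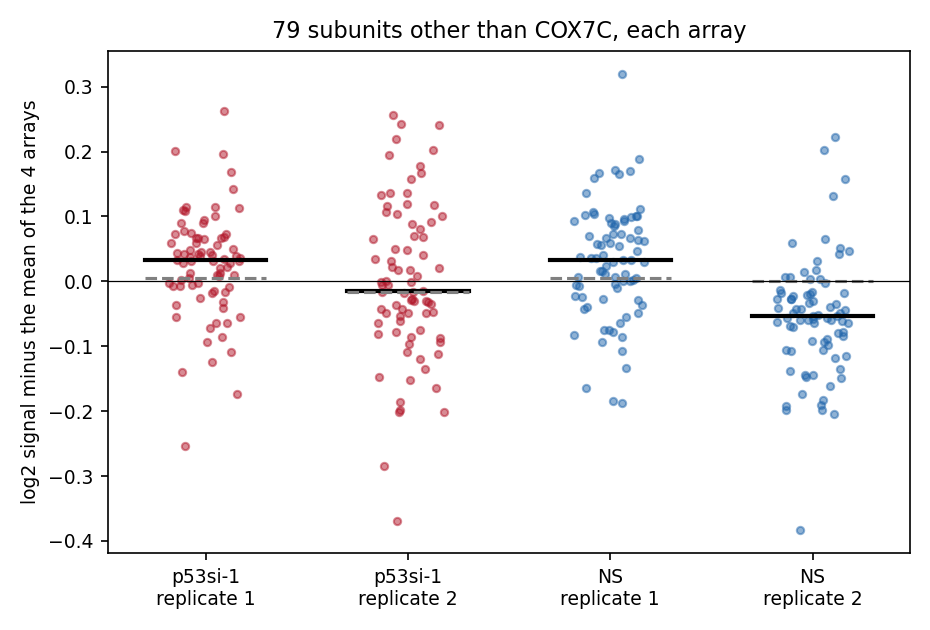
Log2 signal of the 79 subunits other than COX7C on each array, minus the gene's mean over the 4 arrays, for p53si-1 (red) and NS (blue). Black bars are the medians of the subunits and dashed gray bars those of all genes. The subunit medians are 0.033 and -0.015 on p53si-1 replicates 1 and 2, and 0.034 and -0.054 on NS replicates 1 and 2.

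For COX7C, NDUFA3, NDUFA5 and COX7B the p53si-1 and NS arrays did not overlap. Any pairing of their arrays therefore gives the same direction, and only the sizes are described here. COX7C differed by 0.90 between the replicate 1 arrays and by 1.16 between the replicate 2 arrays, and NDUFA3 by -0.49 and -0.59. NDUFA5 differed by 0.39 and 0.25, and COX7B by 0.23 and 0.47. COX7A1 turned round, with 0.14 in replicate 1 and -0.49 in replicate 2.

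**Figure D4:**
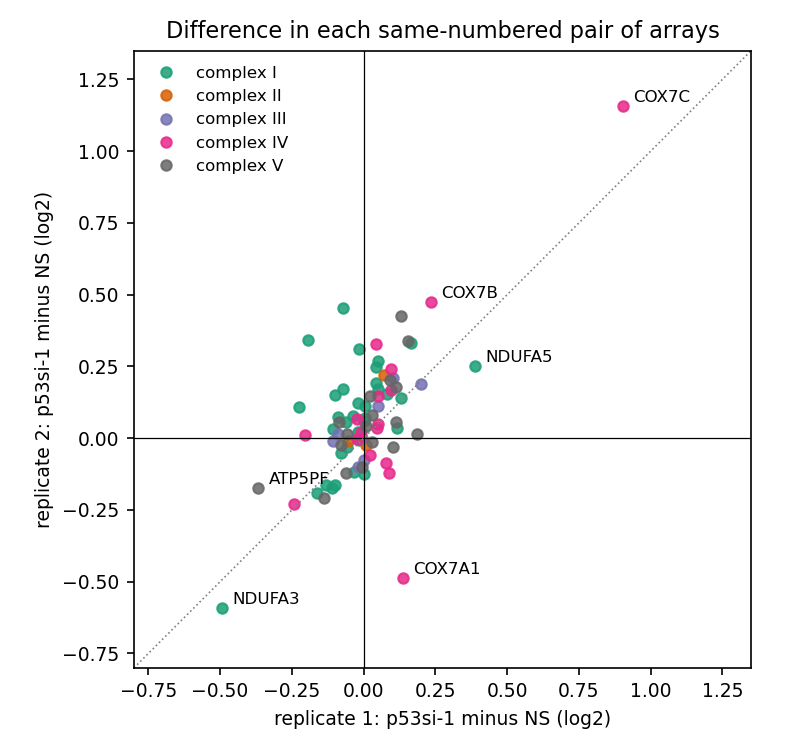
Difference of each subunit (p53si-1 minus NS, log2) between the replicate 1 arrays (horizontal axis) and between the replicate 2 arrays (vertical axis), coloured by complex, with the line of equality dotted. COX7C lies at 0.90 and 1.16 and NDUFA3 at -0.49 and -0.59, while most other subunits lie near 0 in both.

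Of the genes that work with the subunits, none in the following lists passed an adjusted p of 0.05 from limma. Of 52 assembly factors 44 were measured, with a median of 0.037, a higher mean in 31 and a lower mean in 13. COA7, an assembly factor of complex IV, was the only gene in the lists past 1.5-fold, with signals of 7.85 and 7.94 for p53si-1 against 8.43 and 8.55 for NS (difference -0.59, adjusted p = 0.089 from limma). COX15, which makes the heme A of complex IV, was the highest of the assembly factors. Its signals were 8.76 and 8.76 for p53si-1 against 8.42 and 8.47 for NS (difference 0.32, adjusted p = 0.213 from limma). The 13 protein genes of mitochondrial DNA have no measurement of their own here.

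The proteins of the mitochondrial ribosome (72 of 76 measured), which translates the mitochondrial subunits, had a median of 0.046, with 46 higher and 26 lower means, and ran from MRPS18A at -0.33 to MRPL35 at 0.39. The cytosolic ribosome (57 of 77 measured) had a median of 0.045 and ran from RPL19 at -0.14 to RPL32 at 0.31. Its means were higher in 47 genes (82.5%) and lower in 10, with both p53si-1 arrays above both NS arrays for 17 (29.8%) and below both for 0. Among all genes 47.4% had a higher mean, 19.9% lay above and 22.6% below. Among the bright genes described above, these shares were 54.7%, 29.2% and 22.4%. The citric acid cycle (16 of 18 measured) had a median of 0.025, with 11 higher and 5 lower means, and held OGDH, a subunit of the 2-oxoglutarate dehydrogenase complex, at -0.42 and DLAT, of the pyruvate dehydrogenase complex, at 0.16. Genes of cytochrome c and coenzyme Q (17 of 17 measured) had a median of -0.022, with 7 higher and 10 lower means, and held COQ2, an enzyme of coenzyme Q synthesis, at -0.38 and HCCS, which attaches heme to cytochrome c, at 0.24.

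The regulators of respiratory genes did not shift together. Their 12 genes had 6 higher and 6 lower means, and the median was close to 0. GABPA, the DNA-binding subunit of GABP, had signals of 9.36 and 9.27 in p53si-1 cells against 9.01 and 8.89 in NS cells, a difference of 0.36 (adjusted p = 0.201 from limma). NRF1 differed by 0.13 and YY1 by -0.070, and PPARGC1A, the coactivator PGC-1 alpha, was dim with 3.87 and 3.84 for p53si-1 against 3.99 and 4.05 for NS (difference -0.16). Genes of mitochondrial DNA transcription and replication (12 of 12 measured) had a median of 0.032, with 8 higher and 4 lower means, and ran from POLRMT, the mitochondrial RNA polymerase, at -0.081 to LRPPRC, which stabilizes mitochondrial mRNA, at 0.23.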

How the data were processed

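Total RNA of 4 samples of MDA-MB-468 cells, 2 per group, was hybridized to 1 array each. The authors deposited log2 signals, 1 for each transcript cluster on an array. GCOS, RMA and Affymetrix Expression Console are named in the submitters' processing notes, with versions and settings not given in the sources used here. The log2 scale is inferred from the range of the values and from the nearly equal medians of the arrays (5.66 to 5.69). RMA makes the distributions of the arrays alike, which would remove a shift common to most transcripts, and it can understate fold changes of dim genes. No detection call was used.

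Of 33297 transcript clusters, 19460 carry 1 gene symbol in the platform annotation and were used, 1754 carry several and 12083 have no name in it. The cluster with the highest mean stood for a gene, which gave 18417 genes. Of the measured subunits 7 have several clusters, all on the same side of 1.5-fold, and the 2 clusters of NDUFB4 hold identical values. The 9 clusters that name a subunit beside other genes were not used in the counts, and their differences ran from -0.35 to 0.18. The symbols ATP5F1EP2 and UQCRBP1 (pseudogenes) and NDUFV1-DT (a noncoding RNA) were left out.

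Differences of group means were tested in R 4.3.3 by the moderated test of limma 3.58.1, with 4.20 prior and 2 residual degrees of freedom. P-values were adjusted by Benjamini-Hochberg over all genes tested, and the steps were tested on simulated data. Replicates are described in the study as independent experiments, but no source says that a shared number marks a shared culture, so no block was used. With 2 arrays per group the precision is limited, and an exact two-sided permutation test could not go below p = 0.333. The named subunits are the 3 largest increases and decreases of each complex, all of complex IV, and the extremes of each gene list. Subunits named for a module, for overlap or for a promoter match were added after their values were seen. The subunits and lists were chosen with earlier results of these data known.

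Promoters are those of RefSeq, matched by symbol for 67 of 80 subunits. Tables were handled in Python 3.11.15 with pandas 2.3.3. Alternatives were another cluster per gene, a filter on dim genes, other normalizations and priors, the replicate number as a block, each array left out and other thresholds. A comparison with genes of short proteins was planned and not run.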

Additional observations from a re-analysis of the deposited data

How the results depend on the processing

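With 4 arrays, 1 array can decide a call. COX7C kept its direction in all alternatives, with differences from 0.93 to 1.13, and its adjusted p from limma lay between 0.014 and 0.223. Its difference could move only with another normalization or with an array left out, as COX7C has 1 cluster. Leaving out 1 array could not reverse it, because the p53si-1 and NS arrays of COX7C do not overlap. COX7C passed with dim genes left out, the mean of clusters, median centring, quantile normalization and a trended prior. It did not pass with every cluster as a row (1.03, adjusted p = 0.054), the lowest cluster (1.03, adjusted p = 0.052), a robust prior (1.03, adjusted p = 0.052) or any array left out (0.93 to 1.13, adjusted p = 0.066 to 0.223), and the number of subunits called higher was then 0. With an array left out, the lone array of its group is assumed to vary like the other group. With the replicate block the COX7C difference was 1.03, the adjusted p was 0.053 and 0 subunits were called. The block rests on 2 pairs, whose same-numbered deviations correlated at 0.24 over all genes and 0.32 over the subunits, and it changed no other call of a subunit.

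At an unadjusted p under 0.05, 5 subunits were higher and 3 lower. With a looser fold criterion, 2 were higher and 1 was lower, and the number over 1.5-fold lower ran from 0 to 1 without each array. The median of complex IV was 0.073 with dim genes left out, and that of complex V was -0.0091 with quantile normalization. With each array left out, the medians ran from -0.041 to 0.073 (complex I), -0.096 to 0.097 (complex II), -0.047 to 0.036 (complex III), 0.0082 to 0.057 (complex IV) and -0.0085 to 0.052 (complex V). The subunits on chromosome 19 with a lower mean numbered 6 to 11. The cause was not tested. Over all genes, 6 were called higher and 14 lower, against 53 and 139 with dim genes left out, 38 and 111 with a trended prior, 12 and 43 with median centring, 2 and 2 with a robust prior, and at most 1 and 0 with an array left out.

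Of the 37 other named subunits, 16 changed sign in 27 of 470 alternative values, all with a difference of at most 0.18. Many of the 470 values could not change sign, so this share is no measure of how stable the signs are. The replicate block, the trended and robust priors and the filter on dim genes leave a difference as it is. The cluster settings also do so for a subunit without several clusters. The sign of such a subunit could move only with another normalization or with an array left out. Median centring gave 0.012 for COX4I1, 0.0084 for COX6A2, 0.021 for COX6B1, 0.0070 for COX6B2 and 0.017 for SDHD, and quantile normalization gave -0.073 for COX6A1. The others changed sign with an array left out, with ranges of -0.21 to 0.028 (ATP5MC2), -0.037 to 0.011 (COX4I1), -0.0065 to 0.27 (COX5B), -0.044 to 0.056 (COX6A1), -0.070 to 0.037 (COX6A2), -0.15 to 0.14 (COX6B1), -0.051 to 0.015 (COX6B2), -0.37 to 0.022 (COX7A1), -0.026 to 0.068 (COX8A), -0.24 to 0.045 (COX8C), -0.13 to 0.011 (CYC1), -0.10 to 0.038 (SDHA), -0.11 to 0.097 (SDHD), -0.0074 to 0.32 (UQCRB), -0.12 to 0.042 (UQCRC1) and -0.018 to 0.18 (UQCRC2).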

Other observations

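A pattern by chromosome was noticed after the values had been seen. All 11 measured subunit genes on chromosome 19 had a lower mean with p53si-1 than with NS, with a median difference of -0.076. Their differences ran from -0.54 (NDUFA3) to -0.0032 (NDUFA13), so some were close to 0. Both p53si-1 arrays lay below both NS arrays for 3 of the 11 (NDUFA3, NDUFA11 and UQCR11), or 27.3%. The same held for 20.8% of all genes measured on chromosome 19 and for 22.6% of all genes. The 69 subunit genes on other chromosomes had 45 higher and 24 lower means, with a median of 0.041. Of all 1309 genes measured on chromosome 19, 586 had a higher and 723 a lower mean, with a median of -0.014. The count of 11 ran from 6 to 11 with each array left out and was lowest without p53si-1 replicate 2, on which 10 of the 11 were lower than on p53si-1 replicate 1. It was 8 with median centring, and 11 with quantile normalization, the mean of clusters and the lowest cluster.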
